A study of Rattus norvegicus with 64 samples.

Results

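The transcripts described here were abundant in the kidney of vehicle rats, scarce in liver, and shifted little on average after bromobenzene. They were chosen by measured values. The mean level in the 8 kidneys of vehicle rats at 10 h had to be at least 100 TPM (a length-corrected share of the library, scaled to 1 fixed total) and at least 16 times the mean of the 8 livers of vehicle rats at 10 h. Transcripts whose mean log2(TPM + 0.5) differed between bromobenzene and vehicle by 0.3 or more in size in kidney at 10 h, or by 0.4 or more in liver at 5 h or 10 h, were then left out. Of the 31715 transcripts listed, 1241 reached the level, 157 of those also reached the tissue ratio, and 114 remained after 43 were left out. The kidney change at 10 h left out 16, and changes in liver alone left out 27.

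RNA-seq was carried out on organs of 32 outbred Sprague Dawley rats, each given bromobenzene at 0.4 g/kg or saline vehicle. Liver and kidney, the times of 5 h and 10 h and both agents give 8 groups of 8 libraries, 64 in all. The labels give neither sex nor age, and they do not tie a liver to the kidney of the same rat. Their protocol text mentions cultured cells although the sample labels name organs, and the organ labels were followed.

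The kidney filters blood plasma and recovers most of the filtered water, salt, sugar and amino acids along its tubules. The tubule epithelium makes up most of the organ's mass and carries transporters, channels and enzymes that the liver lacks or makes little of. Bromobenzene is oxidized mainly by liver cytochrome P450 enzymes to reactive products that bind glutathione, and some of its conjugated metabolites reach the kidney and can injure tubule cells. In whole tissue, fewer cells of a type and less RNA per cell cannot be told apart.

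The deposited tables name transcripts by Ensembl ID and hold no gene symbols, and 0 of the 31715 IDs could be matched to a symbol with the reference tables used here. The transcripts are therefore described by ID, level and behaviour, without gene names, roles or sequences, and transcripts of 1 gene cannot be recognized as such. Lists of markers for tubule segments, glomerulus, vessels, blood and other cells could not be applied for the same reason. The organ labels were checked only against the tissue-restricted transcripts themselves. The vehicle libraries at 10 h chose those transcripts, so their own labels cannot be checked in this way.

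Depth ranged from 16.98 to 24.1 mega-counts of estimated counts per kidney library and from 13.8 to 28.3 per liver library. Between 21490 and 23815 transcripts had an estimated count above 0 in a kidney library. The lowest number was in Bromobenzene 5 h Kidney replicate 8, and the next lowest kidney library had 22862. Transcripts chosen the opposite way, abundant and restricted to liver (255), held 38.6% to 45.3% of liver TPM, with the vehicle libraries at 10 h that chose them included. In kidney they held between 0.185% and 1.77%, with the highest value in Vehicle 5 h Kidney replicate 4, the next highest 0.479% in Bromobenzene 5 h Kidney replicate 1, and no other kidney above 0.293%. Libraries of a group always differed by more than sampling noise (chi-square at least 9.82 per degree of freedom), so none was merged with another.

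The 114 transcripts differed widely in level. In the vehicle kidneys at 10 h, the values that chose them ran from 100.1 to 14423 TPM, with a median of 210.3 and quartiles of 131 and 365. Of the 114, 6 had at least 1000 TPM, 54 had 200 to 1000 TPM and 54 had less than 200 TPM. A single transcript, ENSRNOT00000079830.1, held 22.5% of their summed TPM, the 4 most abundant held 50.97% and the 10 most abundant 61.1%. In vehicle livers at 10 h their median was 0.789 TPM and their highest 32.2 TPM. There, 48 were below 0.5 TPM, 4 were listed at 0 in all 8 livers, and 28 were at 5 TPM or more. The mean estimated count in those livers was under 3 for 36 of them, so their exact tissue ratio was not measurable at this depth. The pseudocount of 0.5 also damps liver changes at such levels, so the liver limits say little about the 48 below 0.5 TPM. With a pseudocount of 0.1 the rule kept 89 transcripts. Their length ran from 132 to 15512 bases with a median of 1774, against a median of 1184 for the other transcripts at 100 TPM or more in kidney, and 5 were under 300 bases. All 114 were detected in every kidney library, the lowest estimated count of any of them in any kidney being 32.3.

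The rule's limits on level and kidney change fell between closely spaced values, with wider gaps at the liver limits. The transcript just inside the level limit had 100.1 TPM and the one just outside 98.2 TPM. The nearest tissue ratios were 16.1 inside and 15.2 outside. For the change in kidney at 10 h the nearest sizes were 0.291 inside and 0.301 outside on the log2 scale. The corresponding values were 0.349 and 0.40 in liver at 5 h, and 0.399 and 0.489 in liver at 10 h.

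Together these transcripts made up about the same part of the kidney's TPM in every group. In vehicle kidneys their share was 6.37% ± 0.247 at 5 h and 6.42% ± 0.247 at 10 h (SD, n = 8 each). In bromobenzene kidneys it was 6.07% ± 0.348 at 5 h and 6.19% ± 0.254 at 10 h. The libraries ran from 6.09% to 6.79% in vehicle and 5.58% to 6.58% in bromobenzene kidneys at 5 h, and from 5.91% to 6.73% and 5.82% to 6.56% at 10 h. The groups overlapped at both times, and the differences between their means were about as large as the spread between animals. No test is given for this sum because its members were chosen on these data. In liver libraries the same transcripts held 0.0339% to 0.0663% of TPM. The transcripts chosen the opposite way with the same change limits in the other organ (102 restricted to liver) held 10.6% ± 0.370 of TPM in vehicle livers at 5 h.

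The lower mean share after bromobenzene lay mostly in the 4 most abundant transcripts. Those 4 held 3.34% ± 0.255 of TPM in vehicle and 3.05% ± 0.311 in bromobenzene kidneys at 5 h, and 3.27% ± 0.204 and 3.11% ± 0.196 at 10 h. The remaining 110 held 3.04% ± 0.105 and 3.02% ± 0.105 at 5 h, and 3.15% ± 0.104 and 3.08% ± 0.0898 at 10 h. Bromobenzene and vehicle libraries overlapped in both subsets.

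**Figure D1:**
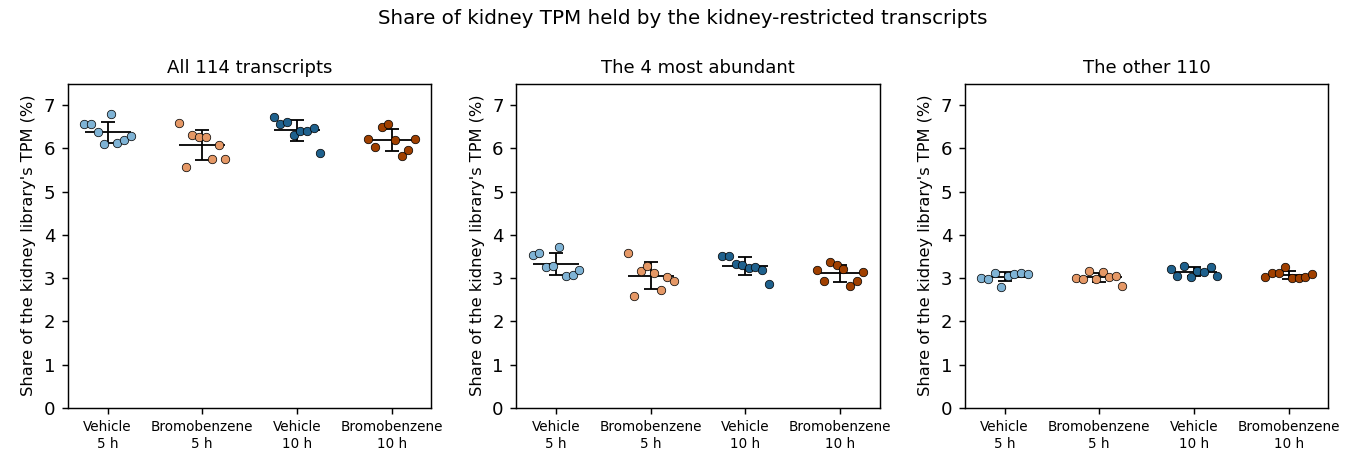
Share of each kidney library's TPM (%, vertical axis from 0) held by all 114 kidney-restricted transcripts, by the 4 most abundant of them and by the other 110, in the 4 kidney groups of 8. Points are libraries, and bars are the mean ± SD; all libraries lie between 5.58% and 6.79% in the left panel, and the groups overlap in each panel.

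The most abundant transcript, ENSRNOT00000079830.1 (1468 bases), accounted for 1.44% of TPM in vehicle kidneys at 10 h. Its lowest, median and highest values were 11806, 15245 and 18887 TPM in vehicle and 10856, 13802 and 16684 TPM in bromobenzene kidneys at 5 h. At 10 h they were 11460, 14051 and 16719 TPM in vehicle and 12505, 14058 and 15985 TPM in bromobenzene kidneys. The groups overlapped over most of their range, and the log2 difference between bromobenzene and vehicle at 5 h was -0.21 (SE 0.10, adjusted p = 0.345 by edgeR).

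The second most abundant, ENSRNOT00000022074.6, is a short transcript of 239 bases, for which the length correction behind TPM is large. Its lowest, median and highest values were 8641, 8967 and 9892 TPM in vehicle kidneys and 7527, 9422 and 10049 TPM in bromobenzene kidneys at 5 h. At 10 h they were 8248, 9233 and 11363 TPM in vehicle and 7340, 8514 and 9838 TPM in bromobenzene kidneys. Its log2 difference between the agents at 5 h was -0.10 (SE 0.06, adjusted p = 0.457 by edgeR).

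ENSRNOT00000007806.2 (705 bases) ran from 4775 to 7175 TPM with a median of 5833 in vehicle and from 3414 to 6948 TPM with a median of 5263 in bromobenzene kidneys at 5 h. ENSRNOT00000066266.3 (452 bases) ran from 2255 to 3611 TPM with a median of 2953 in vehicle and from 1832 to 3002 TPM with a median of 2533 in bromobenzene kidneys at 5 h. Both overlapped between the agents, with log2 differences of -0.17 (SE 0.12, adjusted p = 0.559 by edgeR) and -0.27 (SE 0.13, adjusted p = 0.35 by edgeR).

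ENSRNOT00000009581.4 (2347 bases) differed less between animals, at 1402 to 1969 TPM in vehicle and 1323 to 1853 TPM in bromobenzene kidneys at 5 h. ENSRNOT00000011941.5 (2686 bases) had a median of 1144 TPM in vehicle kidneys, within 988 to 1325, and of 1023 TPM in bromobenzene kidneys, within 947 to 1128, at 5 h. All 8 bromobenzene libraries of this transcript lay below the vehicle median and 3 of them below the lowest vehicle library. Its log2 difference of -0.21 (SE 0.06) did not pass the threshold across all transcripts with edgeR (adjusted p = 0.116), while DESeq2 gave an adjusted p of 0.0481. At 10 h, where the rule had kept only small differences, its medians were 1147 TPM in vehicle and 968 TPM in bromobenzene kidneys. The log2 difference there was -0.18 (SE 0.06, adjusted p = 0.245 by edgeR).

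The kidney restriction was then read in the 5 h vehicle rats, whose levels and tissue ratio the rule had not used, although the bromobenzene change in liver at 5 h had. Of the 114 transcripts, 104 had at least 100 TPM in kidney at 5 h, 113 had at least 16 times the liver mean, and 103 met both. The lowest kidney mean was 67.6 TPM and the lowest ratio 13.3. For all 114, the lowest of the 8 kidneys exceeded the highest of the 8 livers. How many of all transcripts were separated in this way was not counted, so this is a description only. In edgeR's quasi-likelihood test the 16 libraries were treated as independent. By the number of rats stated above, however, the 8 livers and the 8 kidneys would come from the same rats. Which liver belongs with which kidney is not given in the labels, so the pairing was not modelled. In that test, 39.5% of all 18523 transcripts were called higher in kidney. The 114 were all among them, but they passed the filter on low counts through kidney, where the rule chose them to be high, so nothing is read from that count. Fitted fold changes are not given over the 114, since 11 of them had a mean under 3 estimated counts in the 5 h vehicle livers and 1 was listed at 0 in all 8. With library totals alone as the scale, the median log2 difference of all transcripts between the organs shifted from 0.06 to 1.03.

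**Figure D2:**
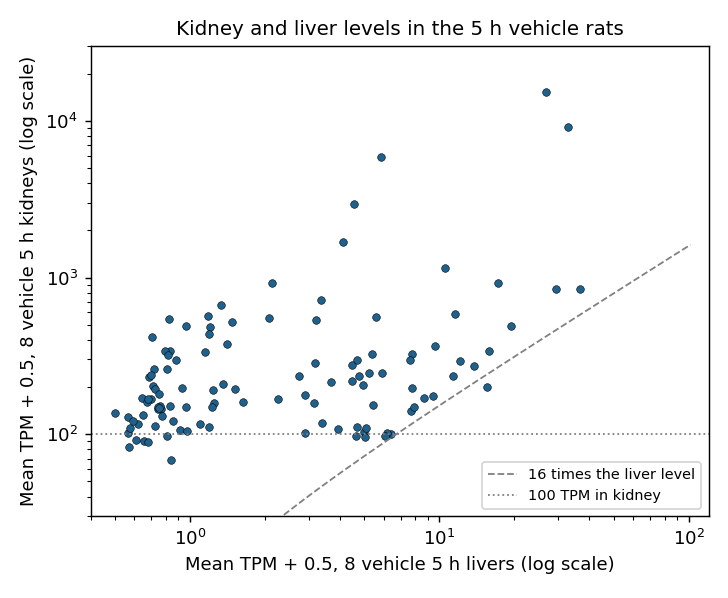
Mean level in 8 vehicle kidneys (vertical) against 8 vehicle livers (horizontal) at 5 h, both as TPM + 0.5 on log scales, 1 point per kidney-restricted transcript. The dashed line marks 16 times the liver level and the dotted line 100 TPM; 113 of 114 points lie above the dashed line and 104 above the dotted one.

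The residual liver signal was uneven between animals in some groups. Among livers of vehicle rats at 5 h, the 5 most abundant kidney-restricted transcripts all had their highest value in replicate 2, and among livers of bromobenzene rats at 10 h all 5 had it in replicate 5. In bromobenzene livers at 5 h, 4 of the 5 had it in replicate 4, while in vehicle livers at 10 h no more than 2 of the 5 shared a highest library. ENSRNOT00000079830.1, for instance, ranged from 9.97 to 67.2 TPM in vehicle livers at 5 h with a median of 21.04. What sets this residual level was not tested.

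At 5 h, the bromobenzene comparison that the rule had not used, few of the 114 transcripts differed from vehicle in kidney. In the quasi-likelihood fit over all 32 kidney libraries, 1 was called higher and 2 were called lower at an adjusted p under 0.05. Of all 20004 transcripts tested, 0.235% were called higher and 0.14% lower. Of the 1241 abundant ones, 9 or 0.725% were called, so the 2.63% called here lay above both backgrounds but rests on 3 transcripts. At an unadjusted p under 0.05, 27 of the 114 (23.7%) differed, against 14.03% of all transcripts. The log2 differences ran from -0.42 to 0.79 with a median of -0.06, the same median as among the 1241 abundant transcripts, while that of all transcripts was 0.00. The difference was below 0 for 76 and above 0 for 38, and 108 lay within 0.3 of 0 with a median SE of 0.079. With library totals alone as the scale, 1 was called higher and none lower, with 21 at an unadjusted p under 0.05. Over all transcripts, that scale gave 74 higher and 15 lower.

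These calls depended on single libraries. None of the 114 was called when Bromobenzene 5 h Kidney replicate 1, 3, 5 or 7, Vehicle 5 h Kidney replicate 1, 2, 4 or 6, or Bromobenzene 10 h Kidney replicate 6 was left out, which is 9 of the 32 fits, with 23 to 33 at an unadjusted p under 0.05 there. The count was 1 without Vehicle 5 h Kidney replicate 3, 5 or 7, Bromobenzene 5 h Kidney replicate 4, Bromobenzene 10 h Kidney replicate 3 or 4, or Vehicle 10 h Kidney replicate 1, 3, 6 or 7. It was 6 without Bromobenzene 5 h Kidney replicate 2 or 8, and 8 without Vehicle 5 h Kidney replicate 8. Without both the vehicle kidney that held the most liver-restricted TPM and the bromobenzene kidney with the fewest detected transcripts, an alternative chosen after the data were seen, 2 were called higher and 4 lower. The number of calls over all transcripts moved with it, from 8 to 448 over the fits that left out 1 library.

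The transcript called higher was ENSRNOT00000035277.5 (6113 bases). Its lowest, median and highest values at 5 h were 61.6, 109 and 117 TPM in vehicle kidneys and 84.8, 166 and 185 TPM in bromobenzene kidneys. Of the 8 bromobenzene libraries, 7 lay above the highest vehicle library, and the exception was replicate 8, the library with the fewest detected transcripts. The log2 difference was 0.61 (SE 0.14, adjusted p = 0.0474 by edgeR), and the call ended in 25 of the 32 fits that left out 1 library, each library of the 5 h groups included except Bromobenzene 5 h Kidney replicates 2, 6 and 8 and Vehicle 5 h Kidney replicate 8. Over all alternatives its difference stayed between 0.55 and 0.72, with adjusted p from 0.00444 to 0.919.

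Of the transcripts called lower, ENSRNOT00000006374.5 (1801 bases) had 129, 160 and 185 TPM as lowest, median and highest values in vehicle kidneys and 118, 138 and 152 TPM in bromobenzene kidneys at 5 h. All 8 bromobenzene libraries lay below the vehicle median, but the groups overlapped. Its log2 difference was -0.25 (SE 0.06, adjusted p = 0.0442 by edgeR), and the call ended in 20 of the 32 fits. The other transcript called lower had a mean of 208 TPM in vehicle kidneys at 10 h and a log2 difference of -0.23 (SE 0.05, adjusted p = 0.0413 by edgeR).

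The largest difference at 5 h in either direction was not called. ENSRNOT00000068216.2 (890 bases) had lowest, median and highest values of 44.99, 57.2 and 134 TPM in vehicle kidneys and 33.03, 135 and 198 TPM in bromobenzene kidneys. The vehicle value of 134 TPM came from replicate 8 alone, all other vehicle kidneys lying at or below 78.4 TPM, and the bromobenzene value of 33.03 TPM came from replicate 8 of that group. The log2 difference was 0.79 (SE 0.23, adjusted p = 0.112 by edgeR). Without Vehicle 5 h Kidney replicate 8 it was 1.02 (edgeR adjusted p = 0.0139), and without Bromobenzene 5 h Kidney replicate 8 it was 0.93 (edgeR adjusted p = 0.0134). DESeq2 on all libraries gave an adjusted p of 0.0302.

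At 10 h, where the rule had kept only small differences between bromobenzene and vehicle, 2 of the 114 were called higher and 0 lower, with 0.305% and 0.32% of all transcripts called in the 2 directions. At an unadjusted p under 0.05 there were 17 (14.9%), against 10.1% of all transcripts. These counts follow from the selection and are given as a description. One of the called transcripts had a difference of 0.32 on edgeR's log2 scale, above the rule's limit, which applied to log2(TPM + 0.5).

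Between 5 h and 10 h, most of the 114 transcripts shifted little in vehicle kidneys. This comparison shares the 10 h libraries with the rule and the 8 vehicle 5 h libraries with the bromobenzene comparison at 5 h. In edgeR's fit, 2 were called higher and 6 lower at 10 h, while 2.88% of all transcripts were called higher and 2.8% lower. Of the 1241 abundant transcripts, 115 or 9.27% were called, 19 of them higher and 96 lower, so that the 7.02% called among the 114, which are 8 transcripts, lay between that share and the 5.68% called in either direction over all transcripts. The difference between these shares was not tested. Before adjustment, edgeR's p was under 0.05 for 30 of the 114 (26.3%), against 20.1% of all transcripts. The log2 differences ran from -0.54 to 0.73 with a median of -0.02, and 104 lay within 0.3 of 0. The direction of the calls depended on the scale, among the 114 and over all transcripts alike. With library totals alone 6 of the 114 were called higher and 3 lower, and with limma on log2(TPM + 0.5) 11 were called higher and 3 lower. Over all transcripts, 817 were called higher and 386 lower with library totals, and 1229 and 194 with that limma fit.

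In bromobenzene kidneys, 4 of the 114 were called higher at 10 h than at 5 h and 0 lower, while 1.58% of all transcripts were called higher and 1.75% lower. The bromobenzene libraries at 10 h also entered the rule, which kept only small differences from vehicle there. Those at 5 h also stand in the bromobenzene comparison at 5 h. This comparison is therefore not independent of the other 2, and its counts are set beside the backgrounds as a description. Unadjusted, 22 (19.3%) had a p under 0.05, against 15.96% of all transcripts. Of the 1241 abundant transcripts 71, or 5.72%, were called, against 3.51% of the 114. The differences ran from -0.70 to 0.66 with a median of 0.05. With library totals alone as the scale, 4 were called higher and 2 lower, and without Bromobenzene 5 h Kidney replicate 4 the calls numbered 8. Over all transcripts, library totals gave 213 higher and 443 lower. Leaving out that library gave 815 calls over all transcripts, against 667 with all libraries. In the bromobenzene comparison at 5 h and the 2 comparisons of times together, 102 of the 114 were called in none. Of all transcripts, 0.37%, 5.68% and 3.33% were called in these comparisons. How many of all transcripts were called in none was not counted, so nothing is read from the 102.

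**Figure D3:**
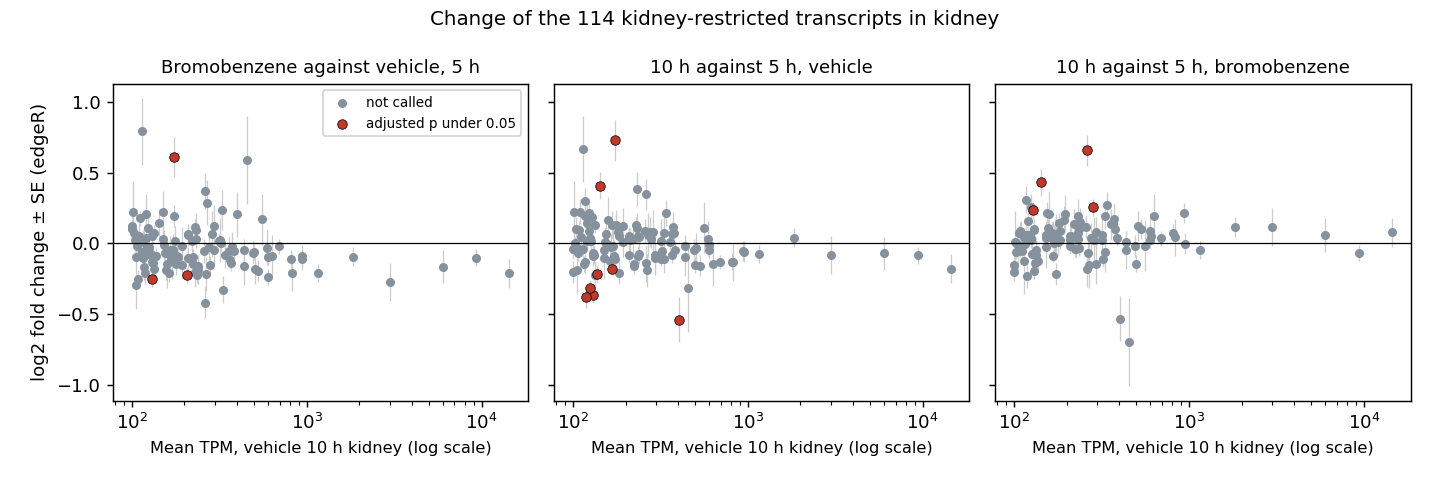
log2 fold change ± SE from edgeR (vertical axis) of each of the 114 transcripts against its mean TPM in vehicle kidneys at 10 h (log scale), for bromobenzene against vehicle at 5 h and for 10 h against 5 h within each agent. Red points passed an adjusted p under 0.05, which 3, 8 and 4 transcripts did; none of the 6 transcripts at 1000 TPM or more is among them.

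ENSRNOT00000035277.5 was also the transcript with the largest called rise with time in vehicle kidneys. It had 122, 166 and 227 TPM as lowest, median and highest values at 10 h, and all 8 libraries lay above the highest vehicle library at 5 h. The log2 difference was 0.73 (SE 0.14, adjusted p = 0.00182 by edgeR), and no fit without 1 library ended the call. In bromobenzene kidneys it had 111, 159 and 214 TPM at 10 h, overlapping the 5 h values, and a difference of 0.06 on the log2 scale (SE 0.14, adjusted p = 0.90 by edgeR). Its levels were therefore lowest in the vehicle kidneys at 5 h, which stand in both comparisons in which it was called.

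ENSRNOT00000006374.5 fell with time in vehicle kidneys, to 119, 130 and 144 TPM as lowest, median and highest values at 10 h. All 8 libraries lay below the 5 h vehicle median, and the log2 difference was -0.37 (SE 0.06, adjusted p = 9.5e-05 by edgeR). In bromobenzene kidneys it had 104, 121 and 131 TPM at 10 h, with a log2 difference from 5 h of -0.19 (SE 0.06, adjusted p = 0.0539 by edgeR).

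ENSRNOT00000018427.4 (455 bases) had the largest called fall with time in vehicle kidneys. Its lowest, median and highest values were 354, 526 and 761 TPM at 5 h and 299, 408 and 524 TPM at 10 h, and all 8 later libraries lay below the earlier median. The log2 difference was -0.54 (SE 0.16, adjusted p = 0.0392 by edgeR). The call ended in 8 of the 32 fits, those without Vehicle 5 h Kidney replicate 2, 7 or 8 or Vehicle 10 h Kidney replicate 1, 2, 4, 5 or 7, and in 7 of the 12 other settings. Those were library totals alone as the scale, no filter on low counts, limma at both pseudocounts, the 2 groups alone, and each stretch of library numbers alone. Bromobenzene kidneys had 480, 626 and 853 TPM at 5 h and 324, 432 and 620 TPM at 10 h, a difference of -0.53 on the log2 scale (SE 0.16, adjusted p = 0.0577 by edgeR).

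ENSRNOT00000057218.3 (2637 bases), chosen for naming after its values were seen, had the largest called rise with time in bromobenzene kidneys. Its values there were 122, 135 and 214 TPM at 5 h and 182, 227 and 298 TPM at 10 h. Of the 8 later libraries, 6 lay above the highest earlier one, and the log2 difference was 0.66 (SE 0.11, adjusted p = 0.000425 by edgeR). In vehicle kidneys it had 138, 197 and 232 TPM at 5 h and 210, 263 and 292 TPM at 10 h, a difference of 0.35 on the log2 scale (SE 0.11, adjusted p = 0.0568 by edgeR). At 5 h, 5 of the 8 bromobenzene libraries lay below the lowest vehicle library, and the difference was -0.42 on the log2 scale (SE 0.11, adjusted p = 0.0641 by edgeR). That difference was called with DESeq2 (adjusted p = 0.0156), and by edgeR without Bromobenzene 5 h Kidney replicate 2 (adjusted p = 0.0316) or Vehicle 5 h Kidney replicate 8 (adjusted p = 0.0164). The difference between the time courses of the agents was not tested.

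**Figure D4:**
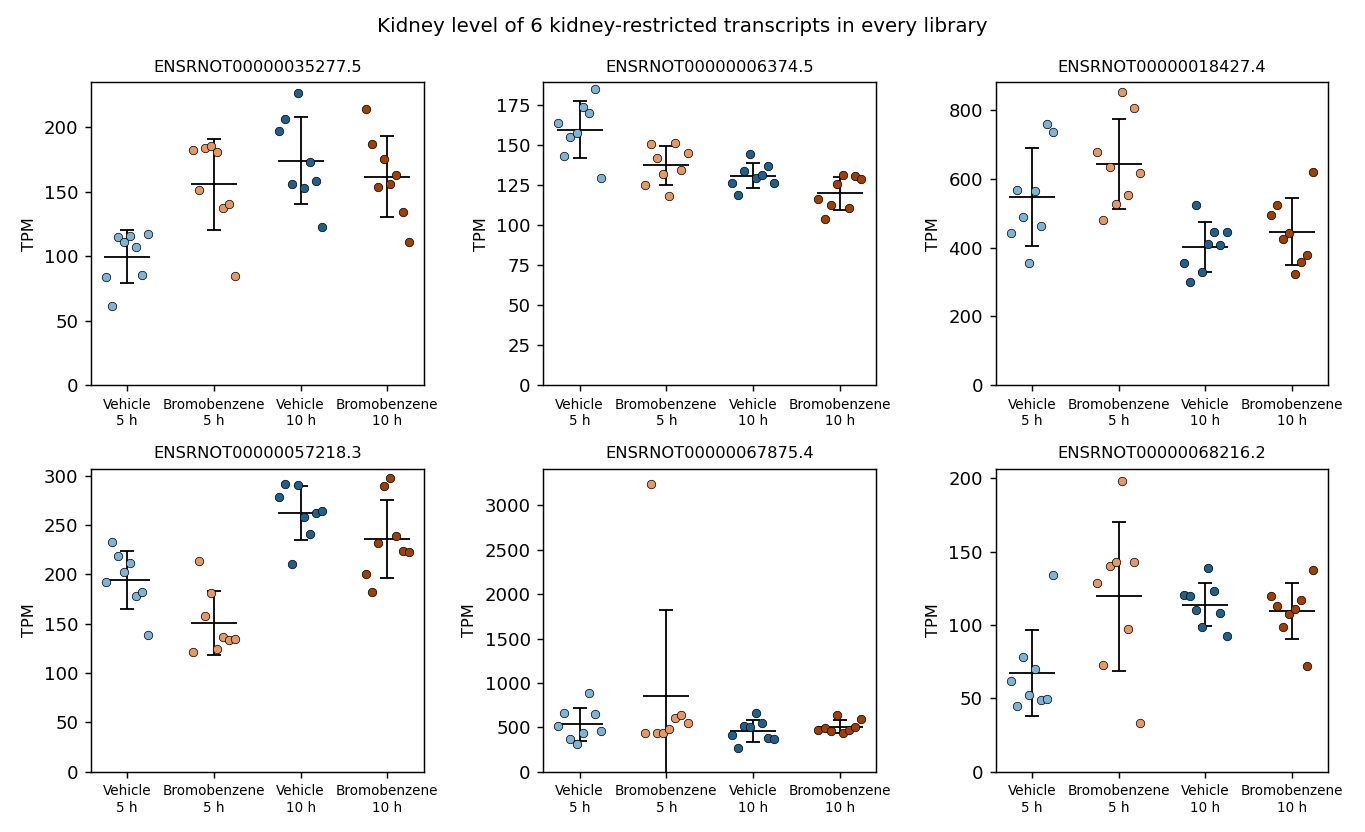
TPM (vertical axes from 0, each panel on its own scale) of 6 named kidney-restricted transcripts in all 32 kidney libraries. Points are libraries in order of replicate number, and bars are the mean ± SD of 8; ENSRNOT00000035277.5 is lowest in vehicle kidneys at 5 h, and ENSRNOT00000067875.4 has 1 library at 3242 TPM.

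The spread between animals had a larger median among the 114 than among other abundant kidney transcripts. The spread was taken as the SD of log2(TPM + 0.5) within a group of 8, pooled over the 4 kidney groups. Its median was 0.169 over the 114, with quartiles of 0.123 and 0.234 and a range of 0.0749 to 0.587. Over the 1084 other transcripts at 100 TPM or more in kidney, the median was 0.112 with quartiles of 0.088 and 0.16. A spread under 0.2 was found for 67 of the 114 (58.8%) and for 85.5% of the 1084. The 43 kidney-restricted transcripts left out for a change had a median of 0.187, and the 102 liver-restricted transcripts of the opposite rule had 0.237 in liver. These are descriptions of chosen sets, with no test between them.

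At the median, counting error was small beside this spread. All 114 had a spread above the counting SD of their mean count, whose median was 0.0191 and whose highest value was 0.195 on the log2 scale, for a median estimated count of 5726 per library. Over the 114, the spread had a Spearman rho of 0.075 with level and of -0.175 with length, given across transcripts that share libraries. By group, the median spread was 0.175 in vehicle and 0.180 in bromobenzene kidneys at 5 h, and 0.152 and 0.133 at 10 h. Between the highest and the lowest of all 32 kidney libraries, the ratio per transcript had a median of 1.72 and a range of 1.20 to 12.2, with 78 within 2-fold and 2 beyond 4-fold.

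The steadiest was ENSRNOT00000017965.7 (1340 bases), with a spread of 0.0749. Its lowest, median and highest values were 657, 720 and 782 TPM in vehicle and 655, 722 and 780 TPM in bromobenzene kidneys at 5 h, and 655, 695 and 748 TPM and 683, 737 and 788 TPM at 10 h. The next, ENSRNOT00000065313.3 (3331 bases), had a spread of 0.0756 and stayed between 325 and 420 TPM in all kidney libraries.

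At the other end, ENSRNOT00000067875.4 (1467 bases) had a spread of 0.587, with 1 library far above the rest. Bromobenzene 5 h Kidney replicate 2 had 3242 TPM, while the other 7 libraries of its group lay between 436 and 644 TPM. The vehicle kidneys at 5 h ran from 316 to 884 TPM. Its log2 difference between the agents at 5 h was 0.59 (SE 0.31, adjusted p = 0.401 by edgeR), and without that library it was -0.07. ENSRNOT00000068216.2, described above, had the next largest spread at 0.503.

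The transcripts did not vary as a single block. After each group's mean was subtracted, the first principal component over the 32 kidneys held 26.7% of the variance and the second 14.2%. On the first, 66 transcripts loaded in one direction and 48 in the other. Bromobenzene 5 h Kidney replicate 2 had the most extreme score at -3.87, and without it the component held 21.6%. Vehicle 5 h Kidney replicate 8 lay farthest on the other side at 2.39. Over the 6441 pairs of transcripts, the median correlation across kidneys was 0.055, with 79 pairs at 0.7 or more and 7 at -0.7 or less, and these pairs share libraries and may include transcripts of 1 gene. The median deviation of the 114 from their group mean, a measure of a shift in their common level, ran from -0.079 in Bromobenzene 5 h Kidney replicate 8 to 0.098 in Bromobenzene 5 h Kidney replicate 3 on the log2 scale.

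**Figure D5:**
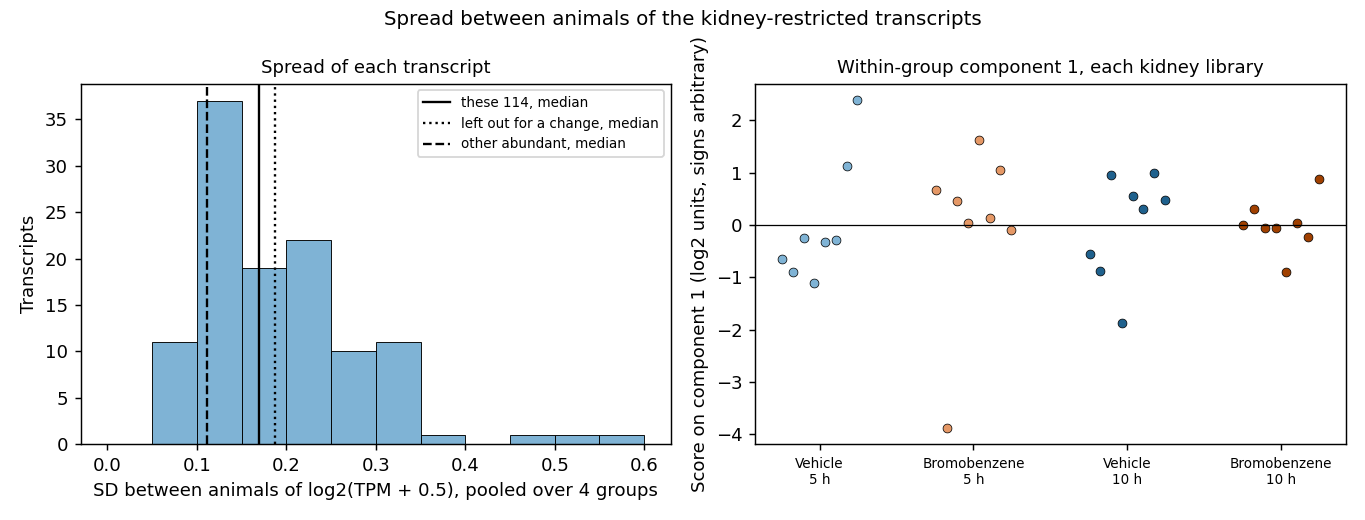
Left, number of kidney-restricted transcripts (vertical) by their SD between animals of log2(TPM + 0.5), with lines at the median of the 114 (0.169), of the 43 left out (0.187) and of 1084 other abundant kidney transcripts (0.112). Right, score of each kidney library on the first component of the within-group variation (log2 units), with 1 bromobenzene kidney at 5 h at -3.87.

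The library numbers in the sample titles run through the kidney groups in 2 stretches, 33 to 50 and 51 to 64, with 2 to 6 libraries of a group in each. Bromobenzene kidneys at 5 h lie mostly in the second stretch, and the other kidney groups mostly in the first. The comparisons that use those bromobenzene kidneys are therefore partly tied to the stretch. Some fits within a stretch rest on 2 libraries of a group. For bromobenzene against vehicle at 5 h, 1 of the 114 was called within the first stretch and none within the second, where 7 had an unadjusted p under 0.05 and limma was not run. Over all transcripts the calls there numbered 5 and 0. For vehicle kidneys at 10 h against 5 h the counts were 11 and 0, with 18 unadjusted in the second, while those over all transcripts were 946 and 14. For bromobenzene kidneys they were 4 and 1, while those over all transcripts were 255 and 20. With the stretch as a covariate in the fit of all kidney libraries, 1 was called higher and 3 lower for bromobenzene at 5 h. With that covariate, 2 were called higher and 6 lower with time in vehicle kidneys, and 3 higher and 2 lower in bromobenzene kidneys. Over all transcripts, that fit called 47 higher and 24 lower for bromobenzene at 5 h. For time it called 598 and 605 in vehicle kidneys, and 268 and 341 in bromobenzene kidneys. The rise of ENSRNOT00000035277.5 and the fall of ENSRNOT00000006374.5 with time in vehicle kidneys were not called within the second stretch alone, and the rise of ENSRNOT00000057218.3 in bromobenzene kidneys was not called within the first. The fall of ENSRNOT00000018427.4 was called within neither. Whether the stretches mark different handling is not given in the labels.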

How the data were processed

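Stranded libraries of polyadenylated RNA from rat liver and kidney were sequenced as 150-base read pairs, per the labels' protocols. Estimated counts and TPM per transcript were deposited by the authors as made by kallisto 0.42.4, with the build Rnor_6.0, per the submitters' processing notes. No source used here names the annotation release or any trimming. Kallisto divides reads shared by isoforms or near-identical copies, so the levels of such transcripts are uncertain. The deposited TPM values sum to the same total in every library, so a rise in some transcripts lowers the others.

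Groups follow the tissue, time and agent labels. Nothing in the labels says how rats were housed or handled, and p-values measure the spread between libraries. Replicate numbers only name libraries. Members and lists were chosen with earlier results of these data known. The TPM values chose the members and gave shares and spread (pseudocount 0.5). The estimated counts were rounded to whole numbers and entered edgeR 4.0.16 under R 4.3.3. Low transcripts were removed by filterByExpr with a minimum count of 10 and a minimum total of 15, scaling was by TMM, and a robust quasi-likelihood model took all 4 kidney groups together with no covariate. The Benjamini-Hochberg adjustment ran over all transcripts tested, and adjusted p-values given without another tool's name are edgeR's. Counts without molecular identifiers are not independent molecules, so counting errors cover counting only. Named transcripts are the 6 most abundant, the 2 with the largest and the 2 with the smallest spread, and at most 2 called rises and 2 called falls, with 1 exception named in the text. Alternatives used other scalings and filters, DESeq2 1.42.0, limma 3.58.1 on log2 TPM with pseudocounts 0.5 and 0.1, the 2 groups alone, stretches of library numbers alone or as a covariate, and each library left out in turn.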

Additional observations from a re-analysis of the deposited data

Results flagged for a closer look

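Among 68 groups of 8 libraries looked at, 6 had a highest or lowest library that stood apart from the other 7 by more than Dixon's 95% critical value, a gap that chance gives in some groups. In kidney, ENSRNOT00000067875.4 was at 3242 TPM in Bromobenzene 5 h Kidney replicate 2, and ENSRNOT00000068216.2 was at 134 TPM in Vehicle 5 h Kidney replicate 8. The share of TPM in liver-restricted transcripts was 1.77% in Vehicle 5 h Kidney replicate 4 and 0.479% in Bromobenzene 5 h Kidney replicate 1, each the highest of its group. In liver, the share of TPM held by the 114 kidney-restricted transcripts was 0.0618% in Bromobenzene 10 h Liver replicate 5, the highest of its group, and 0.0377% in Vehicle 10 h Liver replicate 4, the lowest of its group.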

How the results depend on the processing

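No paired analysis was possible because the labels tie no library to another of the same rat and replicate numbers follow record order. Liver library n and kidney library n + 32 always share agent, time and replicate number, a pairing that the labels do not state and that was not used. With the stretch covariate, 4 transcripts were called at 5 h and 5 with time in bromobenzene kidneys, against 71 and 609 over all transcripts. At 5 h, 3 transcripts were called for bromobenzene, against 11 with DESeq2 (3 higher, 8 lower), 6 without both doubted libraries, 1 with library totals and 1 in the first stretch of library numbers. Over all transcripts, 75 calls became 384, 360, 89 and 5 in those settings. None was called with limma at either pseudocount (19 unadjusted), with only the 2 groups (20 unadjusted) or in the second stretch (7 unadjusted), and leaving out 1 library gave 0 to 8. Over all transcripts, limma called 24 and 30 at pseudocounts 0.5 and 0.1, the 2 groups alone 0 and the second stretch 0. Leaving out 1 library gave 8 to 448 calls over all transcripts. For time in vehicle kidneys, 8 became 13 with DESeq2, 14 and 13 with limma at pseudocounts 0.5 and 0.1, and 0 in the second stretch, with 6 to 11 when 1 library was left out. Over all transcripts, 1137 calls became 1537, 1423, 1405 and 14 in those settings, with 775 to 1459 when 1 library was left out. For time in bromobenzene kidneys, 4 became 8 with DESeq2 (5 higher, 3 lower) and 1 in the second stretch, with 3 to 8 when 1 library was left out. Over all transcripts, 667 calls became 975 and 20 there, with 469 to 815 when 1 library was left out. The cause was not tested, except that a stretch holds fewer libraries. The rule gave 200 transcripts at a limit of 50 TPM and 60 at 200 TPM, as a lower or higher limit must, 89 and 120 with pseudocounts of 0.1 and 1, 79 at 64 times liver, 105 from the 5 h libraries (103 shared), and 109 (without Vehicle 5 h Liver replicate 7) to 120 (without Vehicle 5 h Liver replicate 2) when 1 library that the rule uses was left out. Group mean shares of TPM moved by less than their SD, and the median spread was 0.164 on CPM and 0.153 within stretches. Of 504 values of named transcripts, over 12 other settings and the 16 libraries of the groups compared left out in turn, 431 kept direction and call, 54 lost the call, 8 gained it and 11 reversed sign, none of them called: in the second stretch ENSRNOT00000079830.1 (0.0882), ENSRNOT00000009581.4 (0.0293), ENSRNOT00000011941.5 (0.0106), ENSRNOT00000067875.4 (-0.303) and ENSRNOT00000017965.7 (0.0658). The last was also above 0 with library totals (0.00791) and with limma at both pseudocounts (0.0138 each), and ran from -0.046 to 0.00638 when 1 library was left out, above 0 without Bromobenzene 5 h or Vehicle 5 h Kidney replicate 2. When 1 library was left out, ENSRNOT00000067875.4 ran from -0.0748, without Bromobenzene 5 h Kidney replicate 2, to 0.713. Over all alternatives it ran from -0.303 to 1.82. Counts limit mainly the liver side, where 36 transcripts had a mean under 3 counts at 10 h. In kidney the lowest estimated count was 32.3, and the highest counting SD of 0.195 exceeded the median spread of 0.169.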
